A study of Mus musculus with 13 samples.

Results

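The 10 enzymes described here make serine from glucose carbon and pass its one-carbon unit to folate. They were taken from a list of names, 5 that work in the cytosol (Phgdh, Psat1, Psph, Shmt1 and Mthfd1) and 5 that work in mitochondria (Shmt2, Mthfd2, Mthfd1l, Mthfd2l and Aldh1l2), and all 10 were found among the 47937 genes of the count matrix. The rule names the enzymes and uses no measured value, although results of these data were known when the list was made. RNA was sequenced from double negative (DN) thymocytes, the CD4-CD8- precursors of T cells, sorted at DN3, the stage at which the T cell receptor β locus is rearranged, and at DN4, the stage that follows β-selection. The mice were C57BL/6, 6 weeks old by the labels and untreated. WT;Lck-Cre+ mice (WT) carried only Lck-Cre, a Cre recombinase driven by the Lck promoter, active in the T lineage. Opa1fl/fl;Lck-Cre+ mice carried the same Cre with floxed alleles of Opa1, a gene for a fusion protein of the mitochondrial inner membrane, so that every animal carried Cre. The 13 libraries came from 7 mice: 3 WT and 3 Opa1fl/fl;Lck-Cre+ at DN3, and 4 WT and 3 Opa1fl/fl;Lck-Cre+ at DN4. By the numbers in the labels, mice KO45, KO49, KO51, WT05, WT46 and WT48 each gave a library of both stages, and WT40 gave DN4 only.

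The serine synthesis pathway starts from the glycolytic intermediate 3-phosphoglycerate. PHGDH oxidises it, PSAT1 adds the amino group taken from glutamate, and PSPH removes the phosphate to leave serine. The SHMT enzymes then split serine into glycine and a one-carbon unit carried by tetrahydrofolate. In mitochondria this unit is oxidised by MTHFD2 or MTHFD2L and released as formate by MTHFD1L, and formate leaves for the cytosol, where MTHFD1 puts it back on folate for the synthesis of purines and thymidylate. Proliferating lymphocytes are known to rely on this route, and several of its genes are known targets of the transcription factors ATF4 and MYC.

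Libraries held 5926848 to 14148661 counts. In 12 of them ribosomal RNA-like genes took 0.442 to 1.75% of the counts, and in DN3 WT05 they took 41.4%, which left 3470931 counts. DN3 markers summed to 3840 to 5120 CPM (counts scaled to a common library size) in the DN3 libraries and to 1120 to 2720 CPM in the DN4 libraries, and the 9 markers of later thymocytes to 347 to 482 CPM and 1020 to 4250 CPM. Markers of B cells also differed between the stages: the 9 genes summed to 286 to 430 CPM in DN3 and to 943 to 5780 CPM in DN4, with no marker at 0 in any group. In WT 9 of 9 were higher at DN4 at an adjusted p under 0.05 in edgeR, against 13.4% of all genes. Their median log2 fold change was 6.63. In KO-labelled mice 8 of the 8 tested were higher (median 7.6), against 11.2% of all genes. Of markers of natural killer, innate lymphoid and γδ T cells, 9 genes summed to 582 to 777 CPM in DN3 and to 645 to 1590 CPM in DN4, and Ncr1, Klrb1c and Klrk1 were at 0 in every DN3 library. Myeloid markers held 53.4 to 73.0 CPM over all libraries. Erythroid markers held 0 to 6.28 CPM, and stromal markers 112 to 245 CPM with Foxn1 at 0 throughout. Markers of plasmacytoid dendritic cells, some of which T lineage cells also express, summed to 417 to 1090 CPM in DN3 and to 814 to 1410 CPM in DN4, with Siglech at 0 in DN3. The part of these other cells in the stage differences given for the enzymes was not tested beyond the values given there. In sorted bulk RNA, fewer cells of a kind and less RNA per cell cannot be told apart.

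Opa1, the floxed gene, had 88.5, 93.7 and 89.4 CPM in the DN3 libraries KO45, KO49 and KO51 and 112, 91.8 and 91.0 CPM in the DN3 libraries WT05, WT46 and WT48. At DN4 it had 76.9, 81.3 and 87.8 CPM in KO45, KO49 and KO51 and 90.5, 93.6, 86.5 and 85.0 CPM in WT05, WT40, WT46 and WT48. The ranges of the genotypes overlapped at both stages, with a log2 fold change of -0.12 ± 0.13 (SE) at DN3 and -0.08 ± 0.09 at DN4. Whole-gene counts cannot show whether a few exons were lost, so they do not check the label, and the floxed mice are called KO-labelled. The study examined the alleles by PCR and the OPA1 protein by immunoblotting, which were not analysed here. Counts from Y-linked genes were found in 2 mice, WT40 and WT46, and in no KO-labelled mouse, so genotype and sex were not balanced.

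Levels between genes are compared as CPM per kilobase of exon. Phgdh (chr3:98313170-98339990 on GRCm38, minus strand) stood highest in all 4 groups. Its mean was 183 ± 28.6 CPM per kb (SD, n = 3) in DN3 WT, 195 ± 13.8 (n = 3) in DN3 KO-labelled, 105 ± 14 (n = 4) in DN4 WT and 122 ± 31.1 (n = 3) in DN4 KO-labelled libraries. Shmt2 (chr10:127517123-127522444, minus strand), the mitochondrial serine hydroxymethyltransferase, came next with 124 ± 6.66, 129 ± 25.0, 87.9 ± 11.2 and 103 ± 39.6 CPM per kb in the same order of groups. Phgdh exceeded Shmt2 in every library, although their ranges overlapped at DN4 in both genotypes. The cytosolic Mthfd1 (chr12:76255298-76319803, plus strand), a single protein with several activities of folate metabolism, followed at 51.3 ± 3.85 CPM per kb in DN3 WT. Psat1 (chr19:15904678-15947337, minus strand) had 37.7 ± 2.43, Shmt1 (chr11:60788104-60811718, minus strand), the cytosolic counterpart of Shmt2, 33.3 ± 0.736, Mthfd1l (chr10:3973118-4167081, plus strand) 23.9 ± 3.08 and Mthfd2 (chr6:83305691-83325908, minus strand) 20.2 ± 1.07 CPM per kb. Psph (chr5:129765558-129787449, minus strand) lay lower, at 4.37 ± 1.16 CPM per kb in DN3 WT.

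No neighbours in this order overlapped in DN3 WT. In the other groups the ranges of Mthfd1 and Psat1 overlapped, as did those of Shmt1, Mthfd1l and Mthfd2 next to each other in the order, and in KO-labelled groups Psat1 also overlapped the enzyme below it. At DN4 in WT, Mthfd1l (21.8 ± 1.97 CPM per kb) and Shmt1 (21.7 ± 3.45) changed places in 2 of 4 libraries. The pair of mitochondrial dehydrogenases was far apart. Mthfd2l (chr5:90931117-91021368, plus strand) had 0.948 ± 0.0671 CPM per kb in DN3 WT and between 23 and 75 counts a library over all libraries, below Mthfd2 in each of them. Aldh1l2 (chr10:83487450-83534140, minus strand), which oxidises the one-carbon unit in mitochondria to carbon dioxide, had 3, 0 and 0 counts in DN3 KO45, KO49 and KO51, 1, 2 and 0 in DN4 KO45, KO49 and KO51, and 0 in all 7 WT libraries. A count of 0 allows up to 3 counts, which is 0.208 to 0.876 CPM depending on the library, so no library stood above that limit and Aldh1l2 was not tested. The other 9 enzymes passed the filter on low counts in every comparison.

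**Figure D1:**
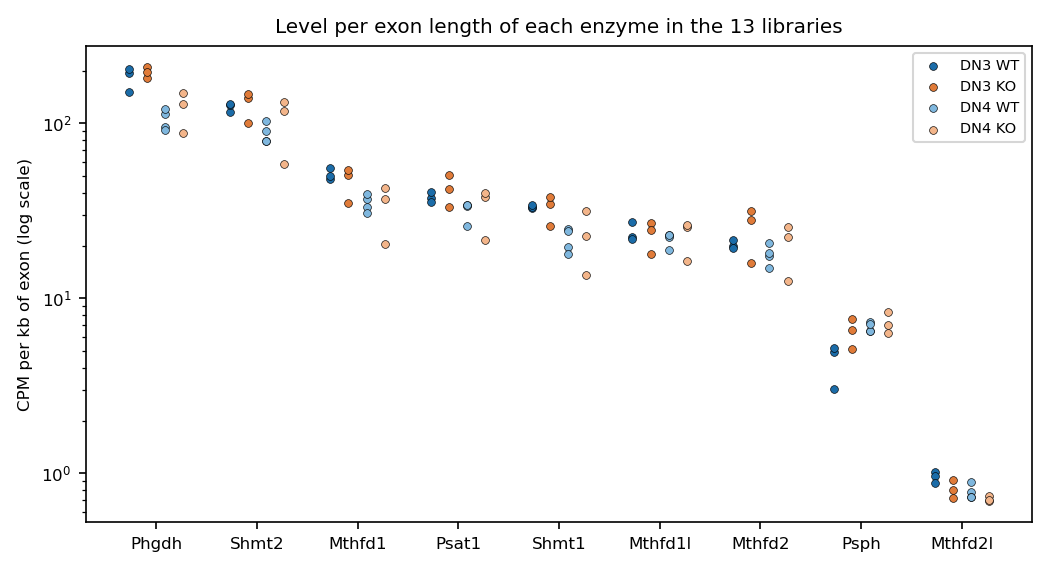
Level of each enzyme above the filter in CPM per kb of exon on a log scale, with 1 point per library and 1 colour per group (3, 3, 4 and 3 libraries; KO is the KO-labelled genotype). Phgdh and Shmt2 lie at the top, 5 enzymes and, lower, Psph lie between, and Mthfd2l lies at the bottom, at 0.948 ± 0.0671 CPM per kb in DN3 WT.

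Some of these counts are shared with other genes. Of the 50-base stretches of Phgdh transcripts, 47.8% also occur in transcripts of other genes, most of them pseudogenes, so its level depends on how reads with several matches were counted. The share was 13.6% for Aldh1l2, 8.82% for Psph, 3.37% for Shmt1, 2.34% for Mthfd2l, 1.25% for Shmt2, 0.739% for Psat1 and 0% for Mthfd1, Mthfd2 and Mthfd1l. Exons of Psph overlap Cct6a, those of Shmt1 overlap Smcr8, those of Shmt2 overlap Ndufa4l2, those of Mthfd1 overlap Gm47525 and those of Aldh1l2 overlap D10Wsu102e, each on the opposite strand. The library kit marks strand, but whether the counting used it is not given in the sources used here.

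Promoter sequence from RefSeq on GRCm38.p6 was found for 9 of the 10 genes, in 10 windows that run from 250 bases before to 50 bases after the start. Those of Phgdh, Shmt2 and Psph are shown because Phgdh and Shmt2 are the most abundant cytosolic and mitochondrial enzymes and because Psph moved against them between the stages. Capitals mark the GC box GGGCGG and the CCAAT box CCAAT on either strand. None of the windows of the 9 genes held the core of the C/EBP-ATF response element, TGATGNAA, which 3.97% of all 32851 windows hold, or the E-box CACGTG, which 7.15% hold. The GC box was found in 6 of the 10 windows, against 35.7% of all windows, and the CCAAT box in 6 of 10, against 37.4%. The Phgdh window, chr3:98339920-98340219 on the minus strand, holds CCAAT boxes, the Psph window, chr5:129787204-129787503 on the minus strand, holds GC boxes and CCAAT boxes, and the Shmt2 window, chr10:127522395-127522694 on the minus strand, holds neither. A match of letters does not show a site in use.
Phgdh: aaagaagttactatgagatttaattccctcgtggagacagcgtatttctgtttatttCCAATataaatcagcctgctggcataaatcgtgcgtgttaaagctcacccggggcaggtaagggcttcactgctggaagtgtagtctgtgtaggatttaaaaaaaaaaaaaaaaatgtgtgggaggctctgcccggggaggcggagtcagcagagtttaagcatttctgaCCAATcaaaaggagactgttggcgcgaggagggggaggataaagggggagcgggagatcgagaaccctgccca
Shmt2: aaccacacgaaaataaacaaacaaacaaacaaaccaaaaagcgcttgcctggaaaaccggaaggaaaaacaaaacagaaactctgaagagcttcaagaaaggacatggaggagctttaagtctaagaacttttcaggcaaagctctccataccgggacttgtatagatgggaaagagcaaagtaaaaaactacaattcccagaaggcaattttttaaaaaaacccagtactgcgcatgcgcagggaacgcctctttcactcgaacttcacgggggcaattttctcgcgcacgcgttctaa
Psph: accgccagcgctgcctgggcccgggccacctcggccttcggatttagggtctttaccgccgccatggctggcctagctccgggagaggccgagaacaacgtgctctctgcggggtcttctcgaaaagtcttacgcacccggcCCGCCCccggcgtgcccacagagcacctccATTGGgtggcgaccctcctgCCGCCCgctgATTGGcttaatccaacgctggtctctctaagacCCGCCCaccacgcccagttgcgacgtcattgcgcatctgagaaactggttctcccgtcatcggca

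The first comparison asks how the enzymes change when WT cells go from DN3 to DN4. Of the 9 enzymes tested, 4 fell (Phgdh, Shmt1, Mthfd1 and Shmt2) and 1 rose (Psph) at an adjusted p under 0.05 in edgeR's quasi-likelihood test. Over all 12691 genes tested 22.9% passed, 9.43% lower and 13.4% higher in DN4. The median log2 fold change of the 9 enzymes was -0.30, beside -0.03 over all genes.

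Phgdh, the first enzyme of serine synthesis, had 374, 479 and 509 CPM in the DN3 libraries WT05, WT46 and WT48 and 237, 281, 300 and 227 CPM in the DN4 libraries WT05, WT40, WT46 and WT48. Every DN4 library lay below every DN3 library, and the log2 fold change was -0.82 ± 0.15 (SE, adjusted p = 0.00604), a fall to 0.565 of the DN3 level. Psat1, the second enzyme, had 159, 151 and 171 CPM at DN3 and 144, 144, 145 and 110 CPM at DN4 in the same order of mice. Its groups did not overlap either, yet the log2 fold change of -0.26 ± 0.12 did not pass (adjusted p = 0.166). Psph, the last enzyme, went the other way, with 13.1, 21.3 and 22.3 CPM at DN3 and 28.3, 31.8, 28.2 and 30.9 CPM at DN4. All 4 DN4 libraries lay above the DN3 libraries, and the log2 fold change was 0.61 ± 0.19 (adjusted p = 0.0491). The lowest value rests on 45 counts in DN3 WT05, the library rich in ribosomal RNA-like counts, and without that library the difference was 0.42 (adjusted p = 0.0437). Leaving out any other single WT library, in turn, ended the Psph call, at adjusted p of 0.0615 to 0.107. The Psph call, close to the threshold, was also lost without ribosomal RNA-like genes (adjusted p = 0.0548), with no filter on low counts (0.0591), without WT mice with Y-linked counts (0.216) and with library totals (0.248).

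The cytosolic folate enzymes fell together. Shmt1, which splits serine in the cytosol, had 127, 128 and 132 CPM at DN3 and 75.9, 97.1, 94.3 and 70.0 CPM at DN4, with a log2 fold change of -0.64 ± 0.13 (adjusted p = 0.0103). Mthfd1, which returns formate to folate, had 247, 214 and 222 CPM at DN3 and 148, 165, 176 and 136 CPM at DN4, with a log2 fold change of -0.57 ± 0.12 (adjusted p = 0.0105). Neither gene showed an overlap between the stages, and Phgdh, Shmt1 and Mthfd1 passed with each WT library left out. With all 13 libraries in 1 fit Shmt1 (adjusted p = 0.0638), Mthfd1 (0.0789) and Shmt2 (0.132) did not pass, without WT mice with Y-linked counts Mthfd1 (0.0621) and Shmt2 (0.111) did not, and with library totals none of the 4 that fell did (0.203 to 0.555).

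Of the mitochondrial enzymes only Shmt2 passed in WT. It had 361, 395 and 397 CPM at DN3 and 248, 280, 320 and 246 CPM at DN4, again without overlap, and its log2 fold change was -0.52 ± 0.13 (adjusted p = 0.0196). The Shmt2 call was lost without DN3 WT46 (adjusted p = 0.0713), DN3 WT48 (0.0704) or DN4 WT05 (0.064). Mthfd2, the mitochondrial dehydrogenase, had 69.5, 67.4 and 74.7 CPM at DN3 and 60.6, 62.9, 72.2 and 52.0 CPM at DN4. Mthfd1l, which releases formate, had 121, 99.6 and 96.3 CPM at DN3 and 102, 98.7, 103 and 84.0 CPM at DN4. In both of these the stages overlapped, with log2 fold changes of -0.21 ± 0.13 (adjusted p = 0.272) and -0.15 ± 0.12 (0.428). Mthfd2l had 5.83 to 6.71 CPM at DN3 and 4.86 to 5.91 CPM at DN4 (log2 fold change -0.30 ± 0.22, adjusted p = 0.368). In all, the groups did not overlap for 6 of the 10 enzymes, 5 lower and 1 higher at DN4, against 34.8% of 13361 genes, 14.9% lower and 19.9% higher.

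The mouse numbers were taken to pair the libraries. With the mouse as a block 3 of the 9 enzymes passed in WT, Phgdh, Shmt1 and Mthfd1, against 18.7% of all genes in either direction. In that fit Shmt2 (log2 fold change -0.54 ± 0.17) had an adjusted p of 0.0625 and Psph (0.61 ± 0.21) one of 0.0813. Because B-cell markers rose in DN4, the comparison was also made without the 2 DN4 libraries over 2000 CPM of these markers, WT05 and WT48. Shmt1 alone then passed, 1 of 9 against 13.7% of 12848 genes in either direction. Phgdh had a log2 fold change of -0.67 (adjusted p = 0.0511), Mthfd1 -0.44 (0.0685), Shmt2 -0.38 (0.12) and Psph 0.61 (0.158) in these libraries, 3 at DN3 and 2 at DN4.

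**Figure D2:**
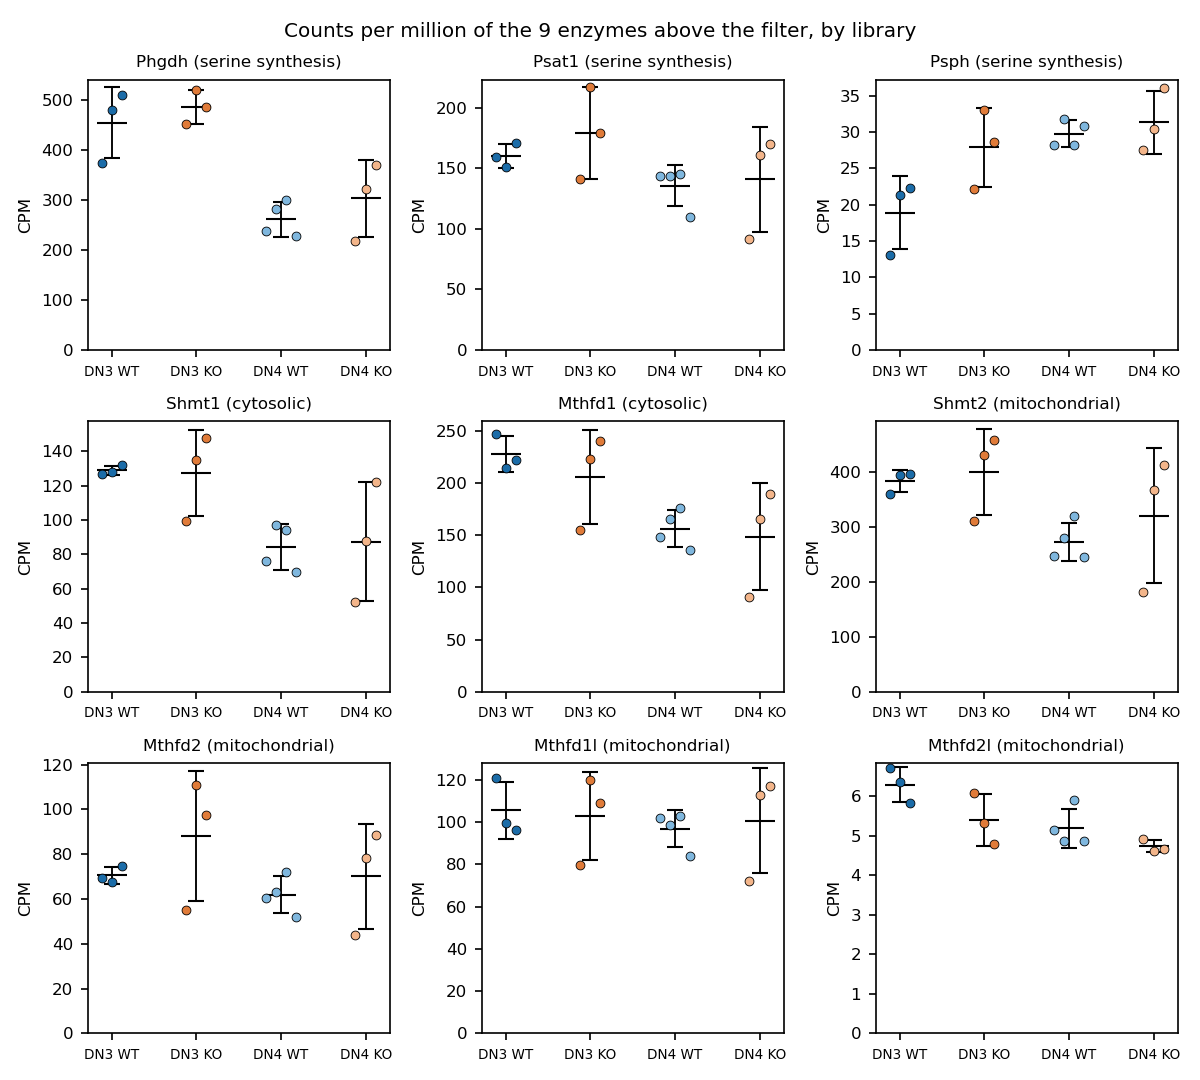
CPM of the 9 enzymes above the filter, with 1 point per library and the mean and SD of each group as a bar (n = 3, 3, 4 and 3; KO is the KO-labelled genotype). Phgdh, Shmt1, Mthfd1 and Shmt2 lie lower and Psph higher in DN4 WT than in DN3 WT without overlap, and the points of the genotypes overlap at each stage.

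In KO-labelled mice the same stages were compared with 3 libraries each. Phgdh was the only enzyme of the 9 that passed, against 18.6% of 12580 genes (7.34% lower and 11.2% higher in DN4). It had 451, 519 and 485 CPM at DN3 in KO45, KO49 and KO51 and 218, 322 and 369 CPM at DN4 in the same mice. The stages did not overlap, and the log2 fold change was -0.70 ± 0.19 (adjusted p = 0.0383). This call was lost without DN3 KO45 (adjusted p = 0.0678), DN3 KO49 (0.102), DN3 KO51 (0.082) or DN4 KO49 (0.0648). The median log2 fold change of the 9 enzymes was -0.34, beside -0.03 over all genes. Phgdh was also the 1 enzyme of 10 whose stages did not overlap, against 39.1% of 13361 genes, 16.2% lower and 23.0% higher. B-cell markers summed to 2340, 3670 and 943 CPM in DN4 KO45, KO49 and KO51 and their part in these differences was not tested.

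Mouse KO45 set much of the spread. Of the 9 enzymes, 8 were lowest in KO45 among the 3 KO-labelled mice at DN3 and 8 were lowest in KO45 at DN4, Mthfd2l being highest there at both stages. Shmt2 had 311, 431 and 458 CPM at DN3 in KO45, KO49 and KO51 and 181, 367 and 414 CPM at DN4. Mthfd2 had 55.3, 111 and 97.7 CPM at DN3 and 43.7, 78.3 and 88.5 CPM at DN4. The sum of 14 proliferation genes was also lowest in KO45, at 3730 CPM against 5370 and 5400 at DN3 and 4160 CPM against 5320 and 6300 at DN4. DN4 KO45 also stood apart in stage markers, with 4250 CPM of markers of later thymocytes against 1670 and 1960 CPM, and 2720 CPM of DN3 markers against 1580 and 1930 CPM, in the other two DN4 libraries of the genotype. The part of these in the spread was not tested. Without DN4 KO45 the stage difference of Shmt2 was -0.09 in place of -0.34. DN4 KO51 was the highest of its group for 8 of the 9 enzymes. Without DN4 KO51 the difference of Shmt2 was -0.59, and Shmt1 passed (-0.90, adjusted p = 0.0337 in edgeR).

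With the mouse as a block, which takes out such differences between animals, 6 of the 9 enzymes passed in KO-labelled mice. All 6 were lower in DN4, against 35.8% of all genes that passed in either direction. The share of all genes that fell was not counted in the blocked fits. They were Phgdh (log2 fold change -0.73 ± 0.13, adjusted p = 0.00202), Mthfd1 (-0.54 ± 0.11, 0.00368), Shmt1 (-0.63 ± 0.13, 0.00438), Mthfd2 (-0.35 ± 0.10, 0.0218), Psat1 (-0.40 ± 0.11, 0.0228) and Shmt2 (-0.41 ± 0.13, 0.0372). In that fit Psph (0.15 ± 0.13, adjusted p = 0.393), Mthfd1l (-0.07 ± 0.09, 0.613) and Mthfd2l (-0.21 ± 0.25, 0.538) did not pass. When both genotypes entered 1 fit with the mouse as a block, the 6 enzymes were again lower and Psph was higher (0.39 ± 0.14, adjusted p = 0.0402). This fit was chosen after the separate fits had been seen, and 7 of 9 passed, against 41.0% of all genes in either direction. Mthfd1l, at -0.09 ± 0.07 (adjusted p = 0.385), and Mthfd2l, at -0.21 ± 0.16 (0.309), did not pass.

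Within each of the 6 mice that gave both stages, Phgdh, Psat1, Shmt1, Mthfd1, Shmt2 and Mthfd2l were lower at DN4. The log2 changes ran from -1.17 to -0.39 for Phgdh, from -0.93 to -0.28 for Shmt1, from -0.77 to -0.29 for Mthfd1, from -0.78 to -0.14 for Shmt2 and from -0.64 to -0.06 for Psat1. Mthfd2 was lower in 5 of 6 mice (-0.52 to 0.10) and Mthfd1l in 4 of 6 (-0.25 to 0.10). Psph was higher in 5 of 6, from -0.11 in KO49 to 1.11 in WT05. The interaction of stage and genotype asks whether the change differed between the genotypes, and 0 of the 9 enzymes passed, as did 0 of 13361 genes, of which 480 had an unadjusted p under 0.05 in edgeR. DESeq2 called 2 genes and none of the 9. The largest interaction was that of Psph, -0.46 ± 0.27 with a 95% interval of -1.04 to 0.12.

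**Figure D3:**
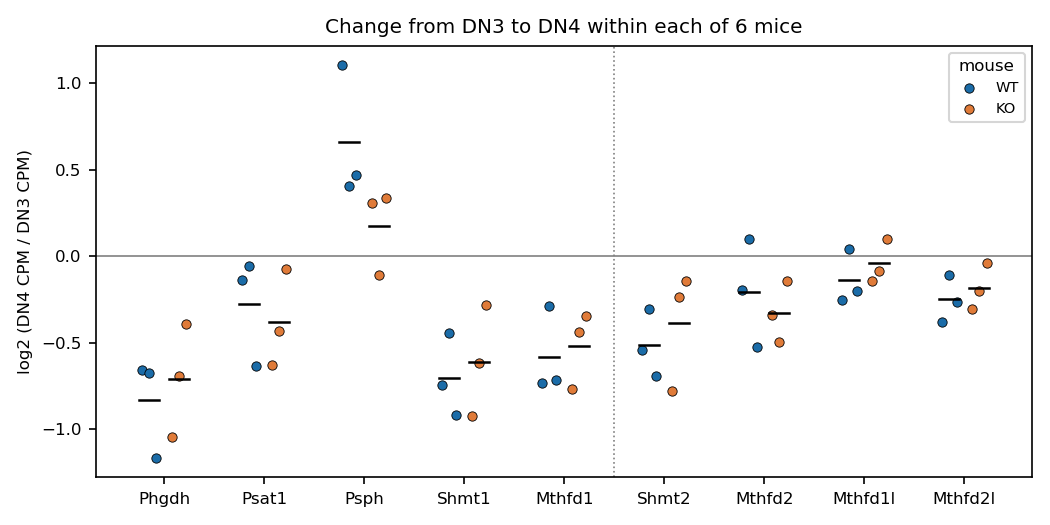
Log2 change of CPM from DN3 to DN4 within each mouse, with 1 point per mouse (3 WT and 3 KO-labelled, marked KO) and the mean of each genotype as a short line. The dotted line separates cytosolic from mitochondrial enzymes. Phgdh, Shmt1, Mthfd1 and Shmt2 are below 0 in all 6 mice and Psph is above 0 in 5.

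Mitochondrial and cytosolic enzymes that carry out like steps were then compared as ratios of counts per exon length within a library, a measure that does not depend on the scaling of libraries. The ratio of Mthfd1l to Mthfd1, which make formate in mitochondria and use it in the cytosol, rose from DN3 to DN4. It was 0.492, 0.465 and 0.434 at DN3 in WT05, WT46 and WT48 and 0.517, 0.537 and 0.454 in KO45, KO49 and KO51. At DN4 it was 0.688, 0.600, 0.585 and 0.621 in WT05, WT40, WT46 and WT48 and 0.800, 0.687 and 0.618 in KO45, KO49 and KO51. Each DN4 library lay above every DN3 library, and the mean log2 ratio was higher by 0.44 (7 against 6 libraries, exact two-sided permutation test over 1716 splits, p = 0.000583, adjusted p = 0.00175 over 3 ratios). That test treats the libraries as independent, although 12 of the 13 are pairs from 6 mice. The ratio rose in 6 of 6 mice, by 0.46 ± 0.11 (SD), and an exact sign-flip test within mice, which keeps the pairs, gave p = 0.0312, the smallest that 6 mice allow (adjusted p = 0.0469). The unpaired test passed with each library left out (adjusted p = 0.00325 to 0.00649). B-cell markers summed to 3190, 1150, 1320 and 5780 CPM in DN4 WT05, WT40, WT46 and WT48. They summed to 2340, 3670 and 943 CPM in DN4 KO45, KO49 and KO51. The DN4 libraries over 2000 CPM of these markers held the higher ratios, 0.621 to 0.800 against 0.585 to 0.618. The part of B cells in the ratio was not tested.

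The ratio of Shmt2 to Shmt1 was 3.71 ± 0.157 (SD, n = 3) in DN3 WT, 3.92 ± 0.0705 (n = 3) in DN3 KO-labelled, 4.08 ± 0.341 (n = 4) in DN4 WT and 4.60 ± 0.541 (n = 3) in DN4 KO-labelled libraries, so Shmt2 stood above Shmt1 in every library. The mean log2 ratio was higher at DN4 by 0.17 (exact permutation test, p = 0.0268, adjusted p = 0.0402), and the ratio rose in 6 of 6 mice (exact sign-flip test within mice, p = 0.0312, adjusted p = 0.0469). DN4 WT40 lay within the range of the DN3 libraries. The unpaired call was lost in 10 of the 13 tests without 1 library, which were all except those without DN3 KO49, DN4 WT05 or DN4 WT40 (adjusted p up to 0.0947).

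The ratio of Mthfd2 to Mthfd1 was 0.396 ± 0.035 (SD, n = 3) in DN3 WT, 0.535 ± 0.0889 (n = 3) in DN3 KO-labelled, 0.505 ± 0.0202 (n = 4) in DN4 WT and 0.605 ± 0.00868 (n = 3) in DN4 KO-labelled libraries. It was higher at DN4 by 0.26 on the log2 scale, which did not pass (exact permutation test, p = 0.0653, adjusted p = 0.0653, and exact sign-flip test within mice, p = 0.0625, adjusted p = 0.0625). In KO49 alone it was lower at DN4, 0.605 against 0.631, and without DN3 KO49 the adjusted p was 0.0114. Within WT libraries alone the difference was 0.36 (4 against 3 libraries, exact permutation p = 0.0286, the smallest this design allows, adjusted p = 0.0429), and within KO-labelled libraries alone it was 0.19 (3 against 3, exact permutation p = 0.4, adjusted p = 0.4).

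Between the genotypes this ratio showed the widest gap of the 3. At DN3 it was 0.358, 0.401 and 0.428 in WT05, WT46 and WT48 and 0.455, 0.631 and 0.518 in KO45, KO49 and KO51. At DN4 it was 0.520, 0.487, 0.524 and 0.489 in WT05, WT40, WT46 and WT48 and 0.614, 0.605 and 0.596 in KO45, KO49 and KO51. The KO-labelled libraries lay above the WT libraries at both stages. The difference of mean log2 ratios was 0.43 at DN3 (exact permutation p = 0.1, the smallest that 3 against 3 allows) and 0.26 at DN4 (exact permutation p = 0.0286, the smallest that 3 against 4 allows), and with adjusted p of 0.2 and 0.171 over 6 tests neither passed. For Shmt2 to Shmt1 the KO-labelled libraries also lay above the WT libraries at DN3, by a narrow gap (lowest 3.86 against highest 3.85, exact permutation p = 0.1, the smallest possible), but not at DN4. The difference was 0.08 at DN3 and 0.17 at DN4, and for Mthfd1l to Mthfd1 it was 0.11 and 0.17, with adjusted exact permutation p of 0.2 to 0.3.

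**Figure D4:**
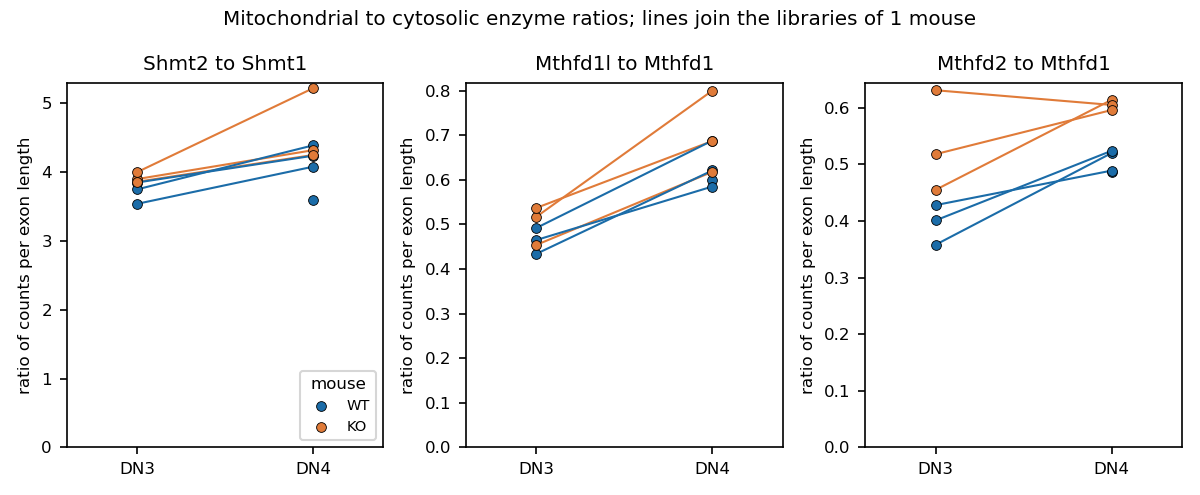
Ratio of counts per exon length of a mitochondrial to a cytosolic enzyme at DN3 and DN4, with 1 point per library (blue WT, orange KO-labelled) and lines that join the libraries of 1 mouse. The Mthfd1l to Mthfd1 ratio rises in 6 of 6 mice, from 0.434 to 0.537 at DN3 to 0.585 to 0.800 at DN4.

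The comparison of the genotypes within a stage found no enzyme that passed. At DN3 0 of 9 passed, as did 0% of 12105 genes, of which 168 had an unadjusted p under 0.05 in edgeR (DESeq2 called 3 genes and limma-voom 0). At DN4 0 of 9 passed, against 0.0535% of 13084 genes, or 7 genes, all lower in edgeR. There 715 genes had an unadjusted p under 0.05, DESeq2 called 51 genes (7 higher and 44 lower) and limma-voom 8, all lower. Among the marker genes DESeq2 called Notch3, a DN3 marker (1.02 ± 0.22, adjusted p = 0.00203), and Nkg7, a natural killer cell marker (-0.72 ± 0.13, adjusted p = 4.02e-05), at DN4, both named after their values were seen. None of the 9 passed with DESeq2 or limma-voom at either stage, and none of the 10 enzymes had genotypes that did not overlap, against 6.51% of 13361 genes at DN3 (3.17% higher and 3.34% lower in KO-labelled mice) and 7.09% at DN4 (2.78% higher and 4.31% lower). The log2 fold changes ran from -0.22 (Mthfd2l) to 0.52 (Psph) at DN3 and from -0.10 (Mthfd2l) to 0.26 (Shmt2) at DN4. Their medians were 0.05 and 0.09, beside -0.01 and 0.00 over all genes.

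The intervals show which differences these libraries could still hold. Phgdh had a log2 fold change of 0.09 at DN3 (95% interval -0.28 to 0.45) and 0.24 at DN4 (-0.18 to 0.67). Shmt2 had 0.05 (-0.34 to 0.44) and 0.26 (-0.32 to 0.84), and Mthfd2 had 0.31 (-0.23 to 0.84) and 0.21 (-0.31 to 0.72). With a library left out, the DN4 values ran from 0.09 to 0.42 for Phgdh, 0.04 to 0.53 for Shmt2 and 0.02 to 0.45 for Mthfd2. The DN3 value of Mthfd2 ran from 0.11 to 0.55. Psph was nearest to a difference at DN3. It had 22.2, 33.0 and 28.6 CPM in KO45, KO49 and KO51 against 13.1, 21.3 and 22.3 CPM in WT05, WT46 and WT48, and its log2 fold change was 0.52 ± 0.23 (unadjusted p = 0.0529, adjusted p = 1 in edgeR). KO45 lay within the WT range. At DN4 the difference of Psph was 0.11 ± 0.13.

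Asns, which makes asparagine and is a known ATF4 target outside these 10, was far more spread between the genotypes. The 3 WT libraries at DN3 held 5, 7 and 11 Asns counts and the 3 KO-labelled libraries 61, 88 and 49. The 4 WT libraries at DN4 held 6, 5, 9 and 4 counts and the 3 KO-labelled libraries 33, 163 and 81. The groups did not overlap at either stage, and the log2 fold changes were 2.78 ± 0.53 at DN3 and 3.76 ± 0.53 at DN4, with adjusted p of 1 and 0.109 over all genes in edgeR. The call depended on the tool: in DESeq2, the tool of the study, Asns passed at both stages (2.79 ± 0.57 with adjusted p = 0.00684 at DN3 and 3.78 ± 0.61 with adjusted p = 5.66e-07 at DN4), and in limma-voom it passed at neither (adjusted p = 1 and 0.72). Atf4 itself had log2 fold changes of 0.10 ± 0.16 and 0.03 ± 0.10. Of 18 ATF4-linked amino acid genes tested, 15 had a positive fold change at DN3 and 16 at DN4, where 48.9% and 50.5% of all genes did. At each stage 4 of the 18 had an unadjusted p under 0.05 in edgeR, against 1.39% of all genes at DN3 and 5.46% at DN4. In edgeR and limma-voom 0 of the 18 passed, and in DESeq2 1 passed at each stage, Asns. Their median log2 fold changes were 0.21 and 0.23, beside 0.05 and 0.09 for the 9 enzymes. Among other lists, 14 of 14 proliferation genes (median 0.26) and 7 of 9 DN3 markers (0.58) were positive at DN4. Of markers of later thymocytes 8 of 9 (0.18) were, and of B-cell markers 0 of 9 (-0.35). At DN3 these lists had 9 of 14 (0.03), 5 of 10 (0.02), 9 of 9 (0.435) and 1 of 5 (-0.74).

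**Figure D5:**
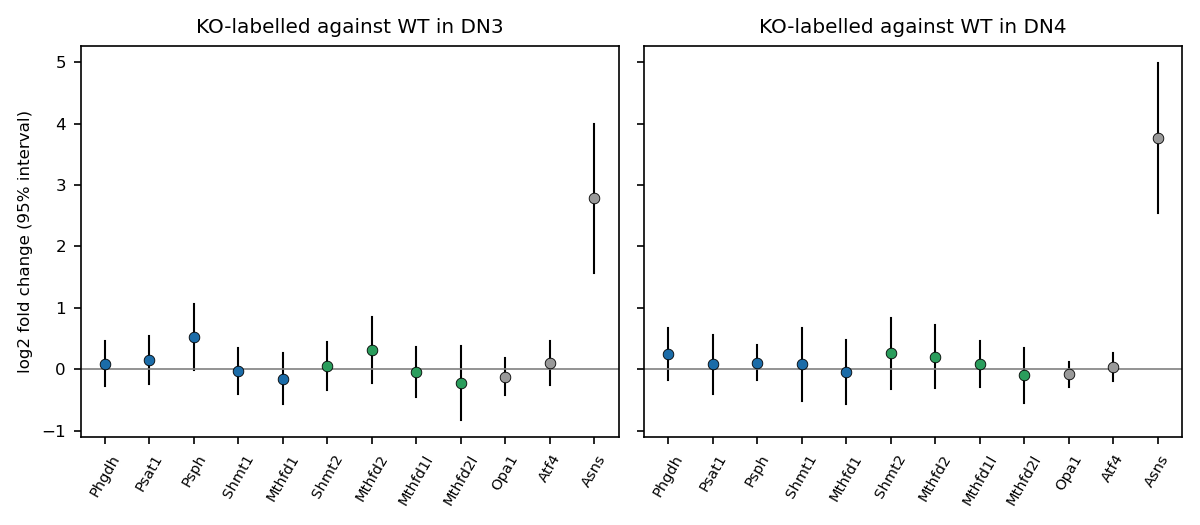
Log2 fold change of KO-labelled against WT at DN3 (left) and DN4 (right) with 95% intervals, for cytosolic enzymes (blue), mitochondrial enzymes (green) and, in grey, Opa1, Atf4 and Asns. The intervals of the 9 enzymes include 0 at both stages, and Asns lies at 2.78 and 3.76.

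Other genes around the pathway were counted by lists, to be read against the 9.43% of all genes that fell and the 13.4% that rose in WT, and the 7.34% that fell and 11.2% that rose in KO-labelled mice. Between the stages in WT, 7 of 21 genes of purine and pyrimidine synthesis fell and 0 rose, among them Adssl1, a muscle-type adenylosuccinate synthase (-1.15 ± 0.25), Cad, which starts pyrimidine synthesis (-0.88 ± 0.19), and Pfas, a purine synthesis enzyme (-0.86 ± 0.24). In KO-labelled mice 4 of 21 fell, Adssl1 (-1.03 ± 0.17) and, named after their values were seen, Adss, Dtymk and Gmps. Of 13 folate genes 2 fell in WT, Slc19a1, the reduced folate carrier (-0.70 ± 0.15), and Fpgs, which adds glutamates that keep folate in the cell (-0.58 ± 0.13), and 0 of 13 passed in KO-labelled mice. Of genes that handle serine and glycine, Gcsh of the glycine cleavage system fell (-0.55 ± 0.12) and Sfxn3, a sideroflexin, rose (0.59 ± 0.18), 2 of 11 tested in WT, and 0 of 12 passed in KO-labelled mice. Of 10 genes of the methionine cycle and of polyamine synthesis, Srm (-0.64 ± 0.17), Mtap (-0.55 ± 0.10) and Mat2a (-0.49 ± 0.11) fell and Mat2b (0.44 ± 0.12) rose in WT, and Mtap (-0.74 ± 0.19) and Mat2a (-0.53 ± 0.13) fell in KO-labelled mice. The median log2 fold changes of these lists in WT were -0.36, -0.16, -0.22 and -0.42, beside -0.03 over all genes.

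Of 16 ATF4-linked genes tested between the stages in WT, where 9.43% of all genes fell, 2 fell, Slc7a5, the large neutral amino acid transporter (-0.71 ± 0.14), and Aldh18a1 of proline synthesis (-0.49 ± 0.11), while in KO-labelled mice 1 of 18 rose, Slc7a11, the cystine transporter (3.06 ± 0.82), named after its value was seen. Atf4 differed by 0.18 ± 0.13 in WT and by 0.07 ± 0.13 in the KO-labelled genotype, and neither passed. Of the Myc list of 3 genes, Myc (-0.98 ± 0.19 and, in KO-labelled mice, -0.96 ± 0.23) and Mycn (-1.85 ± 0.35 and -2.09 ± 0.29) fell in both genotypes. Myc had 301, 390 and 477 CPM at DN3 in WT05, WT46 and WT48 and 151, 211, 223 and 218 CPM at DN4 in WT05, WT40, WT46 and WT48. Of 14 proliferation genes 0 passed in either genotype (edgeR, 0 at an unadjusted p under 0.05 in WT and 2 in KO-labelled mice), with medians of 0.06 and 0.21. Between the genotypes 0 genes of these pathway lists passed at either stage in edgeR or limma-voom, and Asns was the only 1 that passed in DESeq2, at both stages.

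The genes whose log2 CPM followed the enzymes most closely are given as a description over 13 libraries, which share groups, mice and depth. For Phgdh they were Cdca7l (Pearson r = 0.989), Sord (0.983) and Smyd2 (0.981) among 13361 genes, for Shmt2 Mrto4 (0.982), Siva1 (0.971) and Cdk2ap1 (0.967), and for Mthfd2 Gars (0.978), the glycyl-tRNA synthetase, Ranbp1 (0.956) and Rpa2 (0.952). With the group means removed, so that only the spread within groups was left, they were Apex1 (0.98), Cdk4 (0.973) and Smyd2 (0.966) for Phgdh, Mrto4 (0.994), Mrps28 (0.98) and Gart (0.978) for Shmt2, and Gars (0.993), Nup93 (0.989) and Ndufb6 (0.989) for Mthfd2. Among the enzymes, the deviations of Shmt2 followed those of Mthfd1 (0.955), Shmt1 (0.95), Mthfd2 (0.918), Psat1 (0.892) and Phgdh (0.876), and less those of Psph (0.511) and Mthfd2l (-0.299). KO45, low at both stages, is part of each of these values.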

How the data were processed

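RNA of sorted thymocytes was sequenced in 13 libraries from 7 mice. By the study's methods and the labels' notes, the authors made stranded mRNA libraries, trimmed reads with Cutadapt, mapped them with STAR to mm10 and counted them with featureCounts. The deposited values are raw counts, whole numbers for 47937 genes, with 0 columns left unused; the annotation release and treatment of reads with several matches are not given in the sources used here. Groups came from the labels. Of the identifiers, 47224 matched a symbol in GENCODE M21 without their version.

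Genes were tested by edgeR 4.0.16 (R 4.3.3) quasi-likelihood fits of only the groups compared (filterByExpr with a minimum count of 10, TMM scaling), with Benjamini-Hochberg adjustment over all genes and a threshold of 0.05. SE is the fold change over the root of F. CPM used TMM-scaled library sizes over all 13 libraries, and exon length is the union of exons. Ratios used a prior count of 0.5. The study used DESeq2, here an alternative (version 1.42.0), beside limma-voom (limma 3.58.1). No libraries of a group were duplicates (smallest chi-squared per degree of freedom 6.19). Deviations from group means correlated within each mouse over 13361 genes, at 0.179, 0.118 and 0.187 in WT05, WT46 and WT48 and 0.522, 0.236 and 0.396 in KO45, KO49 and KO51. The numbers printed in the labels were taken to pair the libraries, and libraries with different numbers were not correlated in this way. The p-values between genotypes measure the spread between these mice. The unblocked stage and interaction tests treat the libraries of 1 mouse as independent. The blocked and sign-flip tests use the changes within mice.

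All 10 enzymes, Opa1, Atf4, Asns and Myc are named, with up to 3 genes of each pathway list that passed and changed most in each direction between the stages in WT, and the 3 genes closest to Phgdh, Shmt2 and Mthfd2. Gene lists were written by hand: folate, serine and glycine, methionine, purine and pyrimidine, ATF4-linked, proliferation, Myc, and markers of thymocyte stages and of B, myeloid, erythroid, natural killer, plasmacytoid dendritic and stromal cells. The enzymes and lists were chosen with earlier results of these data known. The GC and CCAAT boxes, 11 ribosomal RNA-like genes, the blocked fit of both genotypes, the other tools for the gene lists and the limit on B-cell markers were chosen after the data were seen. The other alternatives were size factors of DESeq2, library totals, no ribosomal RNA-like genes, no filter, at least 10 counts in every library, all libraries in 1 fit, an adjusted p of 0.1, each library left out, no WT mice with Y-linked counts, and the mouse as a block. The fits were tested on simulated counts with known changes. Intervals and limits of 3 counts for a 0 cover counting error only.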

Additional observations from a re-analysis of the deposited data

Results flagged for a closer look

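Psat1 in the DN4 WT libraries had 1 library apart from the rest: WT48 held 110 CPM and the other 3 held 144 to 145 CPM, a gap of 0.971 of the whole range (Dixon's 95% limit 0.829). WT48 was the lowest of the 4 for 8 of the 9 enzymes, and it also had the highest sum of B-cell markers, 5780 CPM against 1150 to 3190 CPM in the others. It had the lowest sums of proliferation genes, 3530 CPM against 4580 to 5690 CPM, and of markers of later thymocytes, 1020 CPM against 1570 to 2960 CPM. The part of these in its low values was not tested. Of 16 groups of values examined 1 stood out in this way, and since chance marks about 1 in 20 groups, 1 of 16 is about what chance gives.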

How the results depend on the processing

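In WT the stage comparison called 5 of 9 enzymes, and 2 with all libraries in 1 fit, 0 with library totals, 2 without WT mice with Y-linked counts, 3 with the mouse as a block, 1 without the DN4 libraries rich in B-cell markers, 4 without ribosomal RNA-like genes or with no filter, where Psph was lost, and 3 to 5 with a library left out. Library totals moved the median of all genes by over 0.1, from -0.03 to 0.16 in this comparison, from -0.01 to 0.23 between genotypes at DN3 and from -0.02 to -0.20 for the interaction, since DN3 WT05 is rich in ribosomal RNA-like counts. In KO-labelled mice the count was 1 (18.6% of all genes), with 6 under the mouse block (35.8%) and 7 with both genotypes in that block (41.0%). With a library left out the count was 0 to 2 (10.7 to 21.1%). Between genotypes no paired analysis was possible because no mouse has both genotypes. There and for the interaction, block included, 0 enzymes passed under every alternative run, while Asns, tested with 3 tools, passed between genotypes in DESeq2 alone.

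For the ratios, Shmt2 to Shmt1 was higher at DN4 by 0.131 in WT alone (adjusted p = 0.143, exact permutation) and 0.224 in KO-labelled libraries alone, Mthfd1l to Mthfd1 by 0.476 in KO-labelled libraries alone and Mthfd2 to Mthfd1 by 0.355 in WT alone; 3 against 3 libraries allow no p under 0.1. With a library left out the differences ran from 0.117 to 0.206 for Shmt2 to Shmt1 and from 0.184 to 0.347 for Mthfd2 to Mthfd1. With the mouse block they were 0.206, 0.46 and 0.282.

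Signs turned only in fold changes that had not passed. With library totals the difference at DN3 was 0.206 for Shmt1, 0.107 for Mthfd1, 0.228 for Mthfd1l and 0.026 for Mthfd2l, the stage difference in WT was 0.072 for Mthfd1l, and the interaction was -0.032 for Phgdh, -0.118 for Shmt1, -0.144 for Mthfd1, -0.006 for Shmt2, -0.131 for Mthfd1l and -0.115 for Mthfd2l. Without WT mice with Y-linked counts it was 0.1 for Mthfd1 between genotypes at DN4, and the interaction was 0.027 for Psat1 and 0.034 for Mthfd2. With a library left out, the difference at DN3 ran from -0.028 to 0.18 for Phgdh, -0.008 to 0.292 for Psat1, -0.147 to 0.12 for Shmt1, -0.276 to 0.015 for Mthfd1, -0.056 to 0.198 for Shmt2 and -0.169 to 0.104 for Mthfd1l. At DN4 it ran from -0.07 to 0.302 for Psat1, -0.228 to 0.334 for Shmt1, -0.25 to 0.201 for Mthfd1 and -0.022 to 0.267 for Mthfd1l. The stage difference in KO-labelled mice ran from -0.191 to 0.11 for Mthfd1l. The interaction ran from -0.047 to 0.309 for Phgdh, -0.267 to 0.125 for Psat1, -0.246 to 0.333 for Shmt1, -0.144 to 0.326 for Mthfd1, -0.053 to 0.457 for Shmt2, -0.383 to 0.114 for Mthfd2 and -0.059 to 0.285 for Mthfd1l. Over all enzymes, comparisons and alternatives, 745 of 837 fold changes kept direction and side of the threshold, 32 lost the call, 14 gained it and 46 turned. Beyond the library totals and the smaller numbers of libraries, the cause was not tested.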
